A study of Drosophila melanogaster with 8 samples.

Results

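The genes described here are 10 genes of the Drosophila melanogaster visual system, 5 opsins and 5 further components of phototransduction. They are ninaE, Rh3, Rh4, Rh5, Rh6, norpA, trp, Arr1, Arr2 and inaD, chosen by symbol from the 15296 gene models listed for every library. Of the 10, 9 reached a mean of 1 FPKM over the 8 libraries and were tested among 9679 genes. FPKM scales mapped fragments to the length of a gene and to library size, so levels of different genes can be set side by side. RNA came from whole animals described as females and raised at 18 °C, either as third-instar larvae or as adults aged 2 to 3 days. A4/A4 animals carried the chromosome 2 inversion In(2)A4 on both homologues and are those the study presents for position effect variegation, in which genes placed beside heterochromatin are silenced in patches. A12/A12 animals served as its wild type, and the labels say nothing more of A12. A4 larvae were picked as non-fluorescent from a stock that balances the inversion over CyO-GFP. Each genotype was sequenced at each stage in 2 libraries, which makes 4 groups and 8 libraries. The labels do not say whether the libraries came from separate cultures or how many animals were pooled, so the p-values speak only to library-to-library spread, which may be technical.

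In fly photoreceptors a rhodopsin, an opsin bound to a retinal-derived chromophore, absorbs light and activates a Gq protein. The G protein switches on phospholipase C, encoded by norpA, and the TRP and TRPL channels then open and let cations in. Arrestins bind the activated rhodopsin and end its signal, and the scaffold protein encoded by inaD holds the phospholipase, the channel and a kinase together. In the compound eye ninaE encodes the main rhodopsin, that of the outer photoreceptors, while Rh3 and Rh4 belong to the inner cell R7 and Rh5 and Rh6 to the inner cell R8. The larval eye, Bolwig's organ, is a small group of cells that uses Rh5 and Rh6. Because whole animals were sequenced, fewer cells of a type and less RNA per cell cannot be told apart in any value given here.

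Several properties of the libraries bear on these genes. A4 larvae replicate 2 carried male-type RNA: roX1 and roX2, RNAs of the male dosage compensation complex, summed to 47.3 FPKM there, 1.48 to 7.69 in the other larval libraries and 0.0913 to 0.785 in adults. Whether all larvae in these libraries were female is therefore uncertain and was not tested. The files give no read counts, so the absolute depth is unknown and low values can be judged only by the deposited confidence bounds. Over all tested genes the median log2 difference, A4 minus A12, was -0.43 in larvae and -0.05 in adults. Adults lay above larvae by a median of 0.48 in A12 and 0.87 in A4. The larval fat body gene Lsp1alpha was listed at 5703 and 3105 FPKM in A4 larvae and 327 and 3149 in A12 larvae. Of 4 such genes tested in limma, Lsp1beta was higher in A4 larvae (1.92 ± 0.49, adjusted p = 0.0239). Lsp2 was lower (-1.08 ± 0.26, adjusted p = 0.0185). The yolk gene Yp3 and the pigment gene w were lower, both at -0.70 (adjusted p = 0.0452 and 0.0322). These 4 calls were lost when only larvae were fitted. Of the 3 yolk genes tested, Yp1 and Yp2 did not pass, at -0.65 and -0.09. The 5 pigment genes tested went in both directions in limma. There st was higher (1.30 ± 0.19, adjusted p = 0.00259) and bw lower (-2.34 ± 0.27, adjusted p = 0.00106), while v and ca did not pass. Of all tested genes 8.75% were higher and 25.9% lower. Of the 4 listed genes of photoreceptor structure (chp, eys, prom and crb), the summed level was 36.2 to 43.5 FPKM in adults, 19.7 to 28.9 in A12 larvae and 9.03 to 11.7 in A4 larvae. The photoreceptor adhesion gene chp accounted for 13.8 to 18.6 FPKM of this in adults and 0.297 to 0.744 in larvae. Most of the larval sum was the polarity gene crb, at 10.9 and 8.28 FPKM in A4 larvae and 27.7 and 18.7 in A12 larvae. In larvae eys was listed at 0.396 to 0.510 FPKM and prom at 0 to 0.0418.

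Adult whole-body RNA held very unequal amounts of the 9 detected genes. ninaE (3R 15711968 to 15713928 in build dm3, as are all positions) stood at 912 and 529 FPKM in A4 adults and at 636 and 731 in A12 adults, replicate 1 before replicate 2 as throughout. It ranked between 301 and 356 among the 9679 tested genes in the 4 adult libraries. Among the R7 opsins, Rh4 (3L 16845627 to 16855617) was listed at 56.8 and 41.0 FPKM in A4 adults and at 48.4 and 62.6 in A12 adults. Rh3 (3R 15906782 to 15908172) was listed at 31.0 and 18.2 FPKM in A4 adults and at 32.8 and 37.4 in A12 adults. Rh4 was therefore the higher of the R7 opsins in each adult library. Of the R8 opsins, Rh6 (3R 11308880 to 11310421) was listed at 19.4 and 11.6 FPKM in A4 adults and at 20.5 and 27.5 in A12 adults. Rh5 (2L 12008376 to 12009845) was the lowest of the detected genes, at 4.60 and 2.53 FPKM in A4 adults and 3.59 and 5.16 in A12 adults. Rh6 exceeded Rh5 in each of these libraries. Among the tested genes Rh4 ranked 1378 to 1862 in adults, Rh3 2131 to 3872, Rh6 2752 to 5374 and Rh5 7291 to 8161.

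Downstream of the opsins, the arrestins were the most abundant. Arr2 (3L 8640361 to 8642036), the major visual arrestin, stood at 375 and 269 FPKM in A4 adults and at 355 and 537 in A12 adults. Arr1 (2L 18078269 to 18081187) stood at 242 and 171 FPKM in A4 adults and at 206 and 258 in A12 adults. Both arrestins thus lay below ninaE and above every other detected gene of the set in each adult library. The channel gene trp (3R 25740243 to 25746011) stood at 51.5 and 36.7 FPKM in A4 adults and 39.7 and 49.8 in A12 adults. The phospholipase gene norpA (X 4216659 to 4258913) stood at 11.4 and 11.6 FPKM in A4 adults and 14.5 and 9.81 in A12 adults. By mean adult level the order was ninaE, Arr2, Arr1, Rh4, trp, Rh3, Rh6, norpA, Rh5. Over the 4 adult libraries the ranges of neighbours in this order did not overlap between Arr2 and Arr1, between Arr1 and Rh4, and between norpA and Rh5. The ranges of ninaE and Arr2, Rh4 and trp, trp and Rh3, Rh3 and Rh6, and Rh6 and norpA overlapped.

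Part of this order depends on which deposited value is read. In all 4 adult libraries the FPKM of ninaE, Rh3, Rh4 and Arr2 lay above its own deposited upper confidence bound, and so did Rh6 in 3 libraries and Rh5 in 1. For norpA, trp and Arr1 it lay inside its bounds in each adult library. The ratio of FPKM to the midpoint of the bounds reached 1.58 to 1.69 for Rh4, 1.43 to 1.62 for Rh3 and 1.05 to 1.20 for ninaE. Read from the midpoints, Rh4 stood at 25.3 to 38.1 and trp at 36.7 to 51.6, so trp then ranked above Rh4. The midpoint ranges of Arr2, 193 to 360, and Arr1, 171 to 260, overlapped, though Arr2 stayed above Arr1 in each adult library. Over tested genes at 1 FPKM or more, 8.70% to 14.4% of values in a library lay above their upper bound.

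inaD (2R 18743211 to 18746317) was listed at 0 FPKM in all 8 libraries, adults included, with an upper bound of 0.0918 to 0.142 and no failure reported, and it was not tested. Its deposited span shares 1 bp with the end of RpL23 (2R 18741898 to 18743211), a ribosomal protein gene listed at 1840 to 4130 FPKM. In all, 1586 of 15279 usable gene models were listed at 0 in all 8 libraries. Whether the shared base bears on the value was not tested, and since the other genes of the pathway were abundant in adults the 0 is reported only as listed. Other spans overlap as well: Rh4 encloses sina, listed at 6.47 to 11.3 FPKM in adults, and Arr2 lies inside Pex7, listed at 0.0724 to 0.154 FPKM in adults. Whether fragments were counted by strand is not given in the sources used here.

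**Figure D1:**
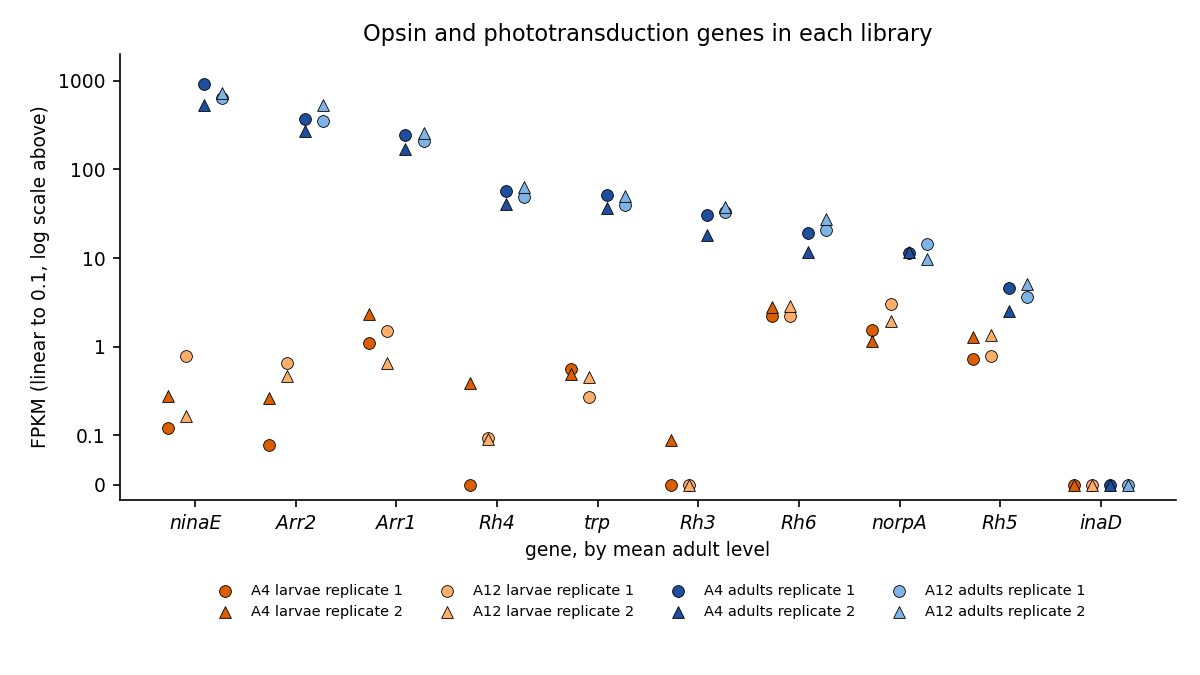
FPKM of each gene in each of the 8 libraries, on an axis that is linear up to 0.1 and logarithmic above, with genes ordered by mean adult level. Adult points (blue) lie above larval points (orange) for 9 genes, and inaD is at 0 in every library.

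The opsin make-up differed between the stages. The 5 opsins summed to 3.08 and 4.86 FPKM in A4 larvae, 3.87 and 4.46 in A12 larvae, 1024 and 603 in A4 adults and 741 and 864 in A12 adults. In adults ninaE supplied 89.1% and 87.8% of this sum in A4 and 85.8% and 84.6% in A12, while Rh5 and Rh6 together supplied 2.34% to 3.78%. In larvae Rh5 and Rh6 supplied 96.1% and 84.4% in A4 and 77.3% and 94.2% in A12. The opsins of the R8 cell and of the larval eye therefore made up most of the small larval sum and little of the adult sum. The ninaE share of the larval sum was 3.93%, 5.77% and 3.74% in 3 libraries and 20.3% in A12 larvae replicate 1. The stage ranges of each share did not overlap, but with 2 libraries a group an exact two-sided permutation test cannot give a p below 0.333, the value it gave here.

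Among adults the opsin shares of the genotypes were close, and their libraries did not overlap. The ninaE share was 88.5% ± 0.879 (SD, n = 2) in A4 and 85.2% ± 0.804 in A12, and with the midpoints of the bounds it was 92.1% and 91.0% against 87.8% and 88.2%. Rh3 made up 35.3% and 30.7% of the R7 opsins Rh3 and Rh4 in A4 adults and 40.4% and 37.4% in A12 adults. Rh5 made up 19.2% and 17.9% of the R8 opsins Rh5 and Rh6 in A4 adults and 14.9% and 15.8% in A12 adults. Each of these genotype differences gave an exact permutation p of 0.333, the smallest the design allows.

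**Figure D2:**
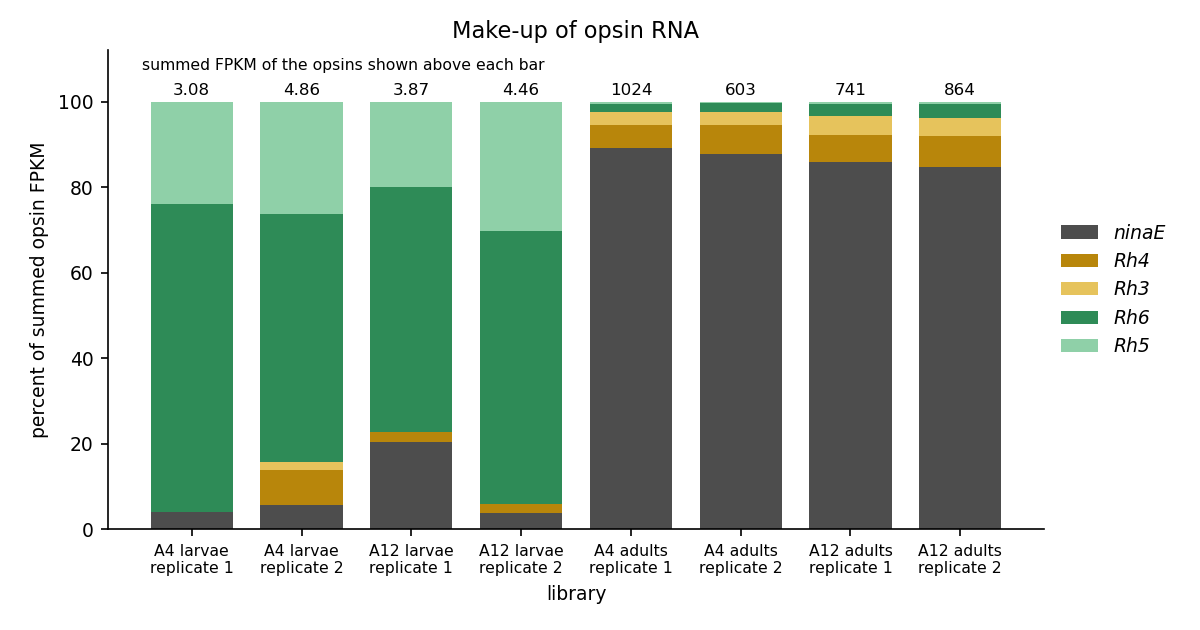
Percent of the summed opsin FPKM supplied by each opsin in each library, with the sum in FPKM printed above each bar. ninaE fills 84.6% to 89.1% of the adult bars, and Rh5 with Rh6 fills 77.3% to 96.1% of the larval bars.

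Larval levels were low, and 5 of the 10 genes had a lower confidence bound above 0 in all 4 larval libraries. Rh6 was listed at 2.22 and 2.83 FPKM in A4 larvae and at 2.22 and 2.86 in A12 larvae. Rh5 was listed at 0.737 and 1.27 FPKM in A4 larvae and 0.777 and 1.35 in A12 larvae. These opsins of the larval eye were the only opsins with a lower bound above 0 in each larval library. norpA, which also acts outside the eye, stood at 1.55 and 1.15 FPKM in A4 larvae and 3.00 and 1.94 in A12 larvae. Arr1 stood at 1.10 and 2.34 FPKM in A4 larvae and 1.51 and 0.655 in A12 larvae. trp stood at 0.556 and 0.493 FPKM in A4 larvae and 0.273 and 0.450 in A12 larvae. The remaining genes were at the edge of detection. Arr2 was listed at 0.0804 to 0.654 FPKM with a lower bound above 0 in 3 of 4 larval libraries, ninaE at 0.121 to 0.786 in 2, and Rh4 at 0 to 0.389 in 1. For Rh4 it was A4 larvae replicate 2, where roX RNA was high. The gene sinah, which lies inside the Rh4 span, was listed at 1.84 FPKM in that library and at 0 in the other larval libraries. Whether sinah bears on the Rh4 value was not tested. Rh3 was listed at 0 in 3 larval libraries and at 0.0902 FPKM in A4 larvae replicate 2, with a lower bound of 0 there too.

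The stage comparison asked how far each gene rose from third-instar larva to adult within a genotype. In A12, 9 of 9 tested genes rose at an adjusted p under 0.05 (limma on log2(FPKM + 1), Benjamini-Hochberg over all tested genes), where 41.1% of all tested genes rose. In A4, 9 of 9 rose, where 55.8% of all tested genes rose. The adult and larval libraries did not overlap for any of the 9 in either genotype, and 53.3% and 67.4% of all tested genes did likewise in that direction in A12 and A4. The median log2 change of the 9 genes was 5.17 in A12 and 4.87 in A4, beside 0.48 and 0.87 over all tested genes. Most of these genes passed the filter on the mean through their adult levels alone, so the counts are a description and support nothing. Without A4 larvae replicate 2, 9 genes passed in A4 as well.

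Within the opsins the size of the rise differed widely. ninaE rose by 8.89 ± 0.31 (SE) on the log2(FPKM + 1) scale in A12 (adjusted p = 1.15e-06) and by 9.18 ± 0.31 in A4 (adjusted p = 1.28e-06). Rh4 rose by 5.68 ± 0.25 in A12 and 5.39 ± 0.25 in A4, and Rh3 by 5.17 ± 0.26 and 4.57 ± 0.26. Rh6 rose by 2.81 ± 0.28 in A12 (adjusted p = 0.000133) and 2.19 ± 0.28 in A4 (adjusted p = 0.000445). Rh5 showed the smallest rise, by 1.38 ± 0.32 in A12 (adjusted p = 0.00731) and 1.16 ± 0.32 in A4 (adjusted p = 0.0128). The opsins found in larvae thus had the smaller stage differences. As ratios of group means, adult Rh6 was 9.46 times the larval level in A12 and 6.14 times in A4, and adult Rh5 was 4.12 times and 3.55 times. The Rh5 call did not hold under every scaling: after median centring its change was 0.84 in A12 (adjusted p = 0.0813) and 0.20 in A4 (adjusted p = 0.66). It was also lost in A4 after quantile normalization (0.65, adjusted p = 0.11), without A4 larvae replicate 1 (0.97, adjusted p = 0.0722) and without A4 adults replicate 1 (0.83, adjusted p = 0.0797).

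Among the downstream genes the arrestins rose most. Arr2 rose by 8.14 ± 0.26 in A12 (adjusted p = 8.74e-07) and 8.09 ± 0.26 in A4 (adjusted p = 1.06e-06). Arr1 rose by 6.83 ± 0.32 in A12 and 6.27 ± 0.32 in A4, and its adult mean was 215 times the larval mean in A12 and 120 times in A4. The channel gene trp rose by 5.06 ± 0.23 in A12 and 4.87 ± 0.23 in A4, with adult means 124 and 84.1 times the larval means. norpA rose by 1.92 ± 0.25 in A12 (adjusted p = 0.000515) and 2.42 ± 0.25 in A4 (adjusted p = 0.00018), with adult means 4.92 and 8.53 times the larval means. norpA therefore had the smallest rise among these 4 downstream genes.

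**Figure D3:**
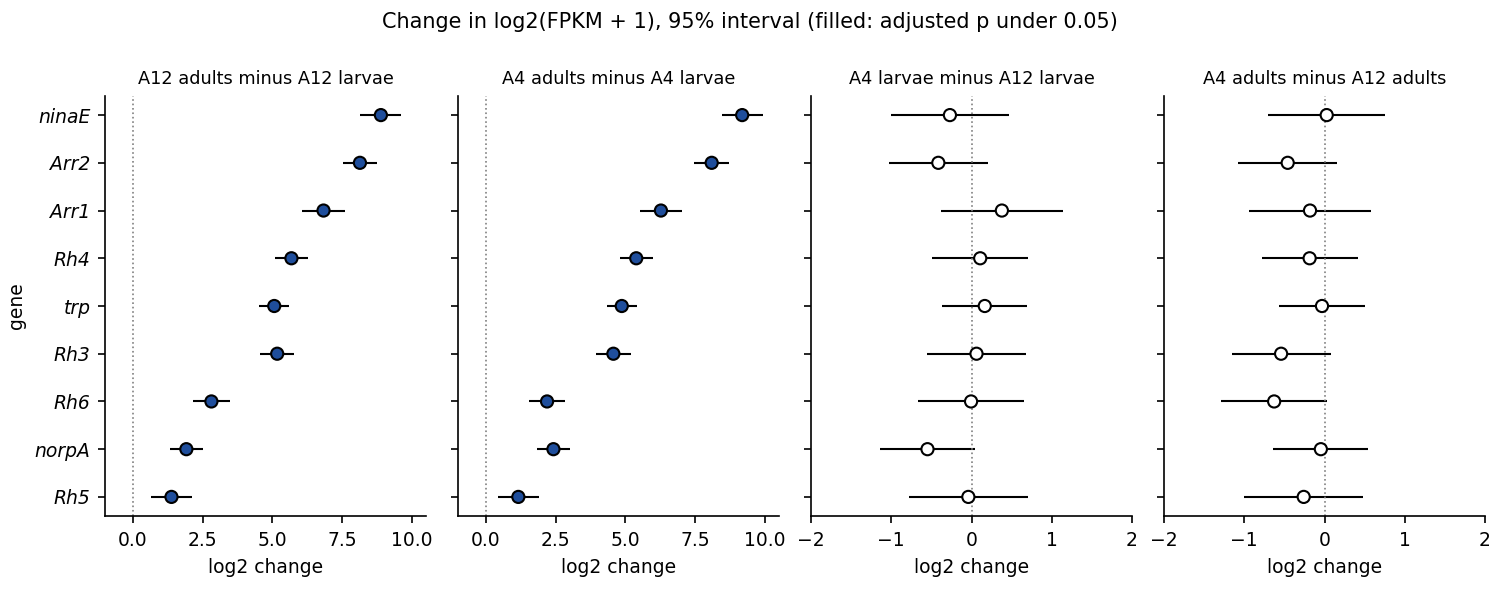
Log2 change of the 9 tested genes with 95% intervals in both stage comparisons and both genotype comparisons, on the log2(FPKM + 1) scale, with filled points at an adjusted p under 0.05. All stage changes lie above 0, from 1.16 to 9.18, and all genotype intervals span 0.

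Between adults of the genotypes, 0 of 9 genes passed the threshold in limma, and 0 had an unadjusted p under 0.05, where 0.734% of all tested genes passed. Their median log2 difference, A4 minus A12, was -0.19, beside -0.05 over all tested genes. The largest difference was that of Rh6, -0.63 ± 0.28 (95% interval -1.29 to 0.03, adjusted p = 0.484), whose A4 libraries both lay below the A12 libraries. The value depended on single libraries. Without A4 adults replicate 2 the Rh6 difference was -0.28 and the median over the 9 genes 0.04. Without A4 adults replicate 1 they were -0.98 and -0.43, without A12 adults replicate 1 the median was -0.37 and without A12 adults replicate 2 it was -0.05, and 0 genes passed in any of these fits. Rh3 differed by -0.54 ± 0.26 (-1.16 to 0.08, adjusted p = 0.517), also without overlap. These were 2 genes of 9 whose A4 adult libraries were lower without overlap, where 26.2% of all tested genes were. ninaE differed by 0.03 ± 0.31 (-0.71 to 0.76), trp by -0.03 ± 0.23 (-0.56 to 0.50) and norpA by -0.05 ± 0.25 (-0.64 to 0.55). Arr2 differed by -0.46 ± 0.26 (-1.08 to 0.16, adjusted p = 0.577), Arr1 by -0.18 ± 0.32 (-0.94 to 0.58), Rh4 by -0.19 ± 0.25 (-0.78 to 0.41) and Rh5 by -0.26 ± 0.32 (-1.001 to 0.482). Each interval spans 0 and holds changes in both directions, so equal levels were not shown.

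Between larvae of the genotypes, 0 of 9 genes passed the threshold in limma, and 0 had an unadjusted p under 0.05, where 34.7% of all tested genes passed. The median log2 difference, A4 minus A12, was -0.01, beside -0.43 over all tested genes. norpA differed by -0.55 ± 0.25 (95% interval -1.14 to 0.04, adjusted p = 0.123) and Arr2 by -0.41 ± 0.26 (-1.03 to 0.20, adjusted p = 0.241), both lower in A4 without overlap. trp lay higher in A4 without overlap, by 0.17 ± 0.23 (-0.37 to 0.70, adjusted p = 0.583). Its levels were low, 0.493 to 0.556 FPKM in A4 and 0.273 to 0.450 in A12, and their deposited confidence bounds overlapped. A lower level without overlap was thus seen for 2 genes of 9, where 56.5% of all tested genes showed it, and a higher level for 1 of 9, where 16.1% did. The larval opsins differed by -0.04 ± 0.32 (Rh5, -0.78 to 0.70) and -0.01 ± 0.28 (Rh6, -0.67 to 0.65). ninaE differed by -0.27 ± 0.31 (-1.002 to 0.464) and Arr1 by 0.38 ± 0.32 (-0.38 to 1.14), both with overlap. In the same comparison the 8 neuronal markers summed to 28.7 to 34.4 FPKM in A4 and 39.8 to 64.1 in A12, and the 5 glial markers to 35.7 to 36.6 and 53.6 to 74.6. Most of the neuronal sum was Csp, at 21.0 and 19.8 FPKM in A4 and 36.3 and 22.2 in A12. Csp did not pass in limma (-0.46 ± 0.30, adjusted p = 0.256). Of the tested markers 2 of 7 neuronal (elav and Syt1) and 1 of 5 glial (loco) passed as lower, where 25.9% of all tested genes did, and the list medians were -0.48 and -0.27 beside -0.43 over all tested genes. Other markers differed little, Syx1A by -0.0035, para by -0.02 and Eaat1 by 0.11. The part of the marker sums in the norpA and Arr2 values was not tested. After median centring the median of the 9 opsin and phototransduction genes moved to 0.45 and that of all tested genes to 0.03, and 2 of the 9 then had an unadjusted p under 0.05 but 0 passed the threshold. With a pseudocount of 0.1, Arr2 passed in larvae at -1.35 (adjusted p = 0.0393), a difference between values of 0.0804 to 0.264 FPKM in A4 and 0.465 to 0.654 in A12.

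The genotype difference was also compared between the stages. The interaction, the adult difference minus the larval difference, passed the threshold for 0 of 9 genes in limma, with 0 at an unadjusted p under 0.05, where 17.6% of all tested genes passed. It ran from -0.62 ± 0.40 for Rh6 (adjusted p = 0.294) to 0.50 ± 0.36 for norpA (adjusted p = 0.34), with a median of -0.22 beside 0.37 over all tested genes. The median lay between -0.52, without A4 adults replicate 1, and 0.04, without A4 adults replicate 2, when 1 library was left out. After median centring the median was -0.65, and 3 genes had an unadjusted p under 0.05, again with 0 past the threshold. The authors' deposited table of log2 ratios of A4 to A12 holds 5 of the 10 genes. In the authors' deposited table the ratio in larvae was -0.08 for Rh5, -0.01 for Rh6, -0.87 for norpA, 0.53 for trp and 0.67 for Arr1. In adults the authors' deposited table gave -0.30 for Rh5, -0.63 for Rh6, -0.07 for norpA, -0.02 for trp and -0.17 for Arr1. These carry no pseudocount, so for genes at low FPKM they are larger than the differences above.

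The spread between adult libraries of a group was shared by most of the genes. In A4 adults replicate 2, 8 of 9 genes were lower than in replicate 1, with a median log2 difference of -0.50, where 61.6% of all tested genes were lower with a median of -0.08. In A12 adults replicate 2, 8 of 9 genes were higher than in replicate 1, with a median of 0.32, where 63.8% of all tested genes were lower with a median of -0.15. The gene that did not follow was norpA in both groups. Relative to the mean over the 4 adult libraries, Rh6 stood at 0.982 and 0.587 in A4 and 1.04 and 1.39 in A12, while norpA stood at 0.966 and 0.982 in A4 and 1.22 and 0.829 in A12. A4 adults replicate 2 was the lowest adult library for 8 of the 9 genes. Of 7 tested genes of chromophore supply and rhodopsin maturation, 5 were lower in A4 adults replicate 2 and 5 were higher in A12 adults replicate 2. Of 19 other tested phototransduction genes, 15 were lower in A4 adults replicate 2, but 12 were lower and 7 higher in A12 adults replicate 2, with a median of -0.14. Of 3 tested genes of photoreceptor structure, 2 were higher in replicate 2 in each genotype. Of 7 tested neuronal markers, 3 were lower in A4 and 3 higher in A12. The shift in A12 adults was thus shared by 7 of the 19 other phototransduction genes, Rh2, inaC, ninaC, Gbeta76C, rdgC, stops and rtp. All but rdgC were below 1 FPKM in each larval library and lower in A4 adults replicate 2. Of the 12 lower genes only trpl was that low in larvae. ninaA, ninaB, Pdh and chp, equally low in larvae, shifted like the opsins in both genotypes. Of other tested genes as low in larvae, CG9317 and boss were lower and eys and para higher in replicate 2 of both. Grouping by larval level came after seeing the values and was not tested. The number of eyes or heads per library is not given in the labels, and its part in this spread was not tested.

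**Figure D4:**
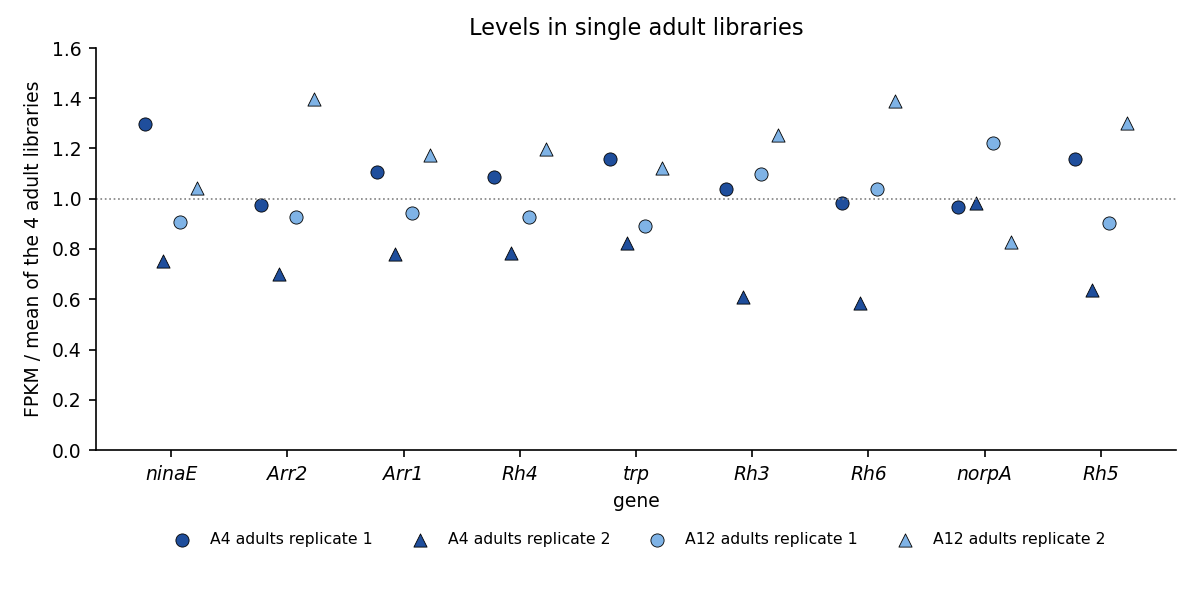
FPKM of the 9 detected genes in each adult library, divided by the gene's mean over the 4 adult libraries. A4 adults replicate 2 is the lowest point for 8 genes, down to 0.587 for Rh6, and norpA departs from the pattern.

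Other genes of the pathway were read from lists by role. Of 20 further phototransduction genes, 19 were tested and 16 rose from larva to adult in A12 and 16 in A4, with median log2 changes of 1.62 and 1.97. Beside them, 41.1% of all tested genes rose in A12 and 55.8% in A4. In this list 0 genes passed as lower in limma, where 17.6% and 13.9% of all tested genes did. After median centring 12 rose and 1 fell in each genotype. The 4 with the smallest p in A12 were ninaC, rtp, Gbeta76C and trpl. These 4, like Rh2, inaC and stops, were below 1 FPKM in each larval library. They passed the filter on the mean through their adult levels alone, and the 4 were picked by this same comparison. Their rises and the counts are therefore a description and support nothing. ninaC, a myosin with a kinase domain, rose by 5.67 ± 0.21 in A12 and 5.63 ± 0.21 in A4, from 0.0685 to 0.434 FPKM in larvae to 48.7 to 72.4 in adults. Gbeta76C, the eye's G protein beta subunit, rose by 4.99 ± 0.26 and 4.75 ± 0.26, and trpl, the second light-gated channel, by 3.90 ± 0.20 and 3.48 ± 0.20. rtp, which encodes a rhabdomere protein, was listed at 0 in all larval libraries and at 21.3 to 36.0 FPKM in adults. The adult level of trpl, 10.9 to 16.6 FPKM, was below that of trp in each adult library, whereas ninaC, at 48.7 to 72.4 FPKM, was above trp in each.

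Of 10 genes of chromophore supply and rhodopsin maturation, 8 were in the files and 7 were tested. In A12, 4 rose and 2 fell, and in A4, 6 rose, where 41.1% and 55.8% of all tested genes rose. After median centring or quantile normalization 4 rose and 3 fell in A12, and 3 rose and 1 fell in A4. Pdh, a retinal pigment-cell dehydrogenase, was listed at 0 in larvae and at 81.5 to 136 FPKM in adults. ninaA, a chaperone of the main rhodopsin, rose by 4.05 ± 0.30 in A12 and 3.82 ± 0.30 in A4, and ninaB, the oxygenase that makes the chromophore, by 3.43 ± 0.28 and 3.09 ± 0.28. Pdh, ninaA and ninaB were below 1 FPKM in each larval library. They too passed the filter on the mean through their adult levels alone, so their rises support nothing. ninaD, a carotenoid scavenger receptor that lies 442 bp from Arr1, rose by 2.47 ± 0.36 and 1.79 ± 0.36, the A4 call being lost after median centring (0.82, adjusted p = 0.161) and quantile normalization (0.86, adjusted p = 0.143). The genes santa-maria, a further carotenoid receptor, and pinta, a retinoid-binding protein, fell in A12, by 1.65 ± 0.31 and 1.11 ± 0.20 on the log2 scale. In A4 santa-maria rose by 1.18 ± 0.31, a call lost after median centring (0.22, adjusted p = 0.539), after quantile normalization (0.22, adjusted p = 0.555), without A4 larvae replicate 1 (1.08, adjusted p = 0.0649) and without A4 adults replicate 1 (0.78, adjusted p = 0.0749). pinta changed by 0.06 ± 0.20 in A4 (adjusted p = 0.808), and after median centring it fell by 0.90 (adjusted p = 0.0024). Cnx99A, a calnexin that also acts outside the eye, changed by -0.27 ± 0.20 in A12 (adjusted p = 0.271) and rose by 0.62 ± 0.20 in A4, a call lost under both other scalings and turned to -0.34 after median centring.

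In larvae some genes of these lists differed between the genotypes. Of the 7 chromophore genes 3 were lower in A4 larvae, and of the 19 phototransduction genes 1 was higher and 1 lower, where 8.75% of all tested genes were higher and 25.9% lower. santa-maria was listed at 3.52 and 4.17 FPKM in A4 larvae and at 66.6 and 45.4 in A12 larvae, a log2 difference of -3.53 ± 0.31 (adjusted p = 0.00036). pinta was listed at 12.04 and 13.78 FPKM in A4 larvae and 50.2 and 37.2 in A12 larvae, a difference of -1.67 ± 0.20 (adjusted p = 0.00121). Their libraries did not overlap, and both calls held in every alternative run. Cnx99A differed by -0.69 ± 0.20 (adjusted p = 0.0339) and Ggamma30A, a G protein gamma subunit, by -1.03 ± 0.28 (adjusted p = 0.0301), and both calls were lost after median centring, after quantile normalization and in several fits that left out 1 library. Calx, a sodium-calcium exchanger, was higher in A4 by 0.999 ± 0.19 (adjusted p = 0.00898), a call lost when only larvae were fitted and without A12 larvae replicate 1. In adults 0 genes of these lists passed in limma, with 2 phototransduction genes and 1 chromophore gene at an unadjusted p under 0.05.

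**Figure D5:**
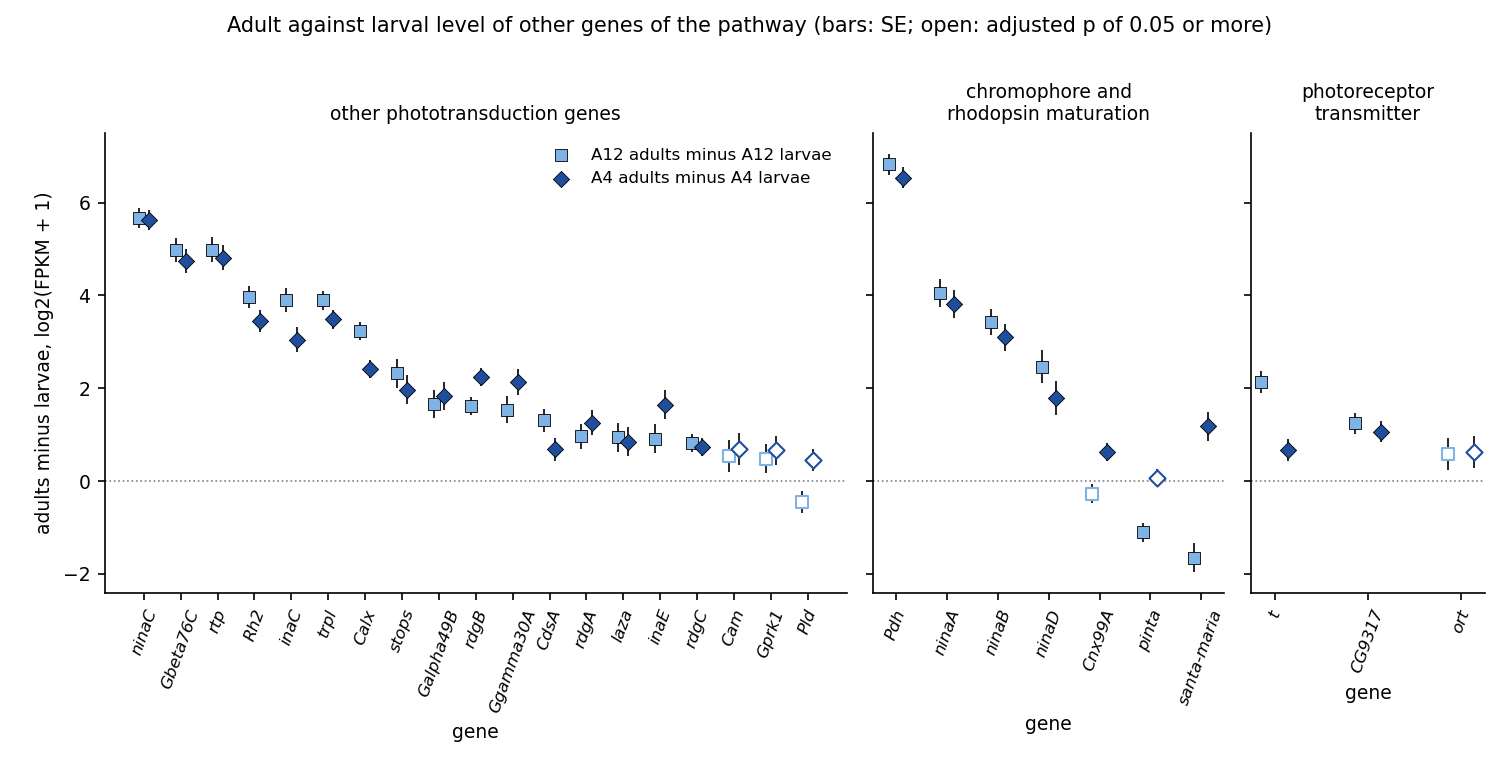
Log2 change from larvae to adults, on the log2(FPKM + 1) scale with SE bars, for tested genes of phototransduction, chromophore supply and rhodopsin maturation, and transmitter handling, in A12 (squares) and A4 (diamonds). Filled points passed at an adjusted p under 0.05, and santa-maria lies at -1.65 in A12 and at 1.18 in A4, where its call is lost after median centring (0.22).

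On the log2(FPKM + 1) scale, which understates changes of low genes, the tested genes of photoreceptor output and of eye specification moved less. Among genes too low to be tested, Hdc was listed at 0.0743 to 0.136 FPKM in larvae and 1.55 to 1.97 in adults. CG3790 stood at 0 to 0.113 and 0.946 to 2.25 FPKM, and Pph13 at 0 to 0.0437 and 1.16 to 1.54. The reverse held for ato, at 0.853 to 2.09 and 0 to 0.0712 FPKM, and sens, at 1.18 to 1.36 and 0.120 to 0.154. Of 6 transmitter genes 3 were tested, and 2 rose in each genotype. They were t, a hydrolase that frees histamine, which rose by 2.14 ± 0.24 in A12 and 0.67 ± 0.24 in A4, and CG9317 (CarT in the RefSeq gene table), a transporter of carcinine, by 1.25 ± 0.23 and 1.07 ± 0.23. The histamine receptor gene ort changed by 0.59 ± 0.34 (adjusted p = 0.179) and 0.63 ± 0.34 (adjusted p = 0.136). Of 20 specification genes 10 were tested, and 1 rose and 4 fell in A12 while 3 rose and 1 fell in A4, where 41.1% of all tested genes rose and 17.6% fell in A12 and 55.8% and 13.9% did in A4. The A4 balance turned with the scaling, to 1 rising and 6 falling after median centring and 1 and 4 after quantile normalization, and in A12 it became 1 and 6 under both. boss, the ligand that specifies the R7 cell, rose by 2.06 ± 0.23 in A12 and 2.04 ± 0.23 in A4. Both boss and CG9317 were below 1 FPKM in each larval library. They passed the filter on the mean through their adult levels alone, so their rises support nothing. melt, a gene of the choice between R8 subtypes, fell by 1.55 ± 0.28 and 1.10 ± 0.28, the latter a call lost without A4 larvae replicate 1 or A4 adults replicate 1. In A4 larvae 3 of the 10 tested specification genes were lower than in A12 larvae, where 25.9% of all tested genes were. They were salr, with a log2 difference of -0.87 ± 0.23, sev, the receptor of boss, with -1.01 ± 0.25, and wts with -1.08 ± 0.32. All 3 calls were lost after median centring and in several fits that left out 1 library. The part of the neuronal and glial marker sums given above in these differences was not tested. In A4 the call of t was lost under both other scalings, where its change was -0.30 and -0.21, and in several fits that left out 1 library. That of CG9317 was lost after median centring, at 0.10 (adjusted p = 0.728), so that 0 of the 3 transmitter genes then passed as higher in A4.

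The profiles most like that of ninaE over the 8 libraries, by Euclidean distance between log2(FPKM + 1) values centred on each gene's mean, were those of dhd (0.884), CG5107 (1.08), Yp2 (1.12), CG18628 (1.13), CG5028 (1.17) and yl (1.18). The 8 libraries share 2 stages, so any gene with a like adult rise scores as close. dhd, Yp2 and yl are genes of the female germ line and yolk, and Yp1 to Yp3 together stood at 5966 to 9230 FPKM in adults. Of the other opsin and phototransduction genes Arr2 ranked 11 by this distance, Arr1 52, Rh4 95, trp 132, Rh3 146, Rh6 620, norpA 895 and Rh5 2529.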

How the data were processed

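RNA of 8 libraries was read from gene tables deposited by the authors, with an FPKM, a status and confidence bounds for each gene model. The submitters' processing notes name Bowtie, Bowtie2, TopHat 0.6, Cufflinks and build dm3. A TruSeq kit was used after Ribo-Zero treatment, per the labels' protocols. A further table deposited by the authors gives log2 ratios of A4 to A12 for 9120 matched genes, and 99.9% of its finite values lay within 0.01 of the log2 ratio of group mean FPKM. These values are not counts, so no count test was run and the depth is unknown. After removal of 17 models with a failed or high-data status, 9679 genes averaging 1 FPKM or more were tested on log2(FPKM + 1), a scale that understates changes of low genes. limma 3.58.1 (R 4.3.3) fitted the 4 groups together with a mean-variance trend, with Benjamini-Hochberg adjustment over all tested genes and a threshold of 0.05. Intervals are 95%. The fit was tested on simulated data. Shares were compared by exact two-sided permutation tests in scipy 1.17.1, and tables and figures used Python 3.11.15, pandas 2.3.3, numpy 2.4.6 and matplotlib 3.10.9. Locus starts were counted from 0 in the files and are given from 1.

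The members and lists were chosen with earlier results of these data known. All 10 members are named. Picked for naming from each list were up to 4 genes by smallest p in the A12 stage comparison, and any called between genotypes. The 6 genes most like ninaE were added. Not every marker gene picked this way is described above. Each alternative changed 1 choice: the pseudocount (0.1 or 5), the filter (none, or 5 FPKM on average), the scaling (median centring or quantile normalization), the trend, the groups fitted, the replicate number as a block, or 1 library left out. The midpoint of the confidence bounds was added after seeing the data. Sequences were not used here.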

Additional observations from a re-analysis of the deposited data

Results flagged for a closer look

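Of the opsin and phototransduction genes, 0 of 9 tested passed the interaction test in limma, with 0 at an unadjusted p under 0.05. Among the listed genes around them 8 passed it, where 17.6% of all tested genes did. Their genotype difference thus differed between the stages (interaction, adult minus larval difference between A4 and A12, log2 scale). By list, 2 of 7 tested chromophore, 1 of 3 transmitter, 0 of 19 phototransduction and 0 of 10 specification genes passed. Of the markers, 1 of 3 structure, 1 of 7 neuronal, 1 of 5 glial and 2 of 5 eye pigment genes passed. Of the yolk, larval fat body and roX genes, 0 of 3, 0 of 4 and 0 of 2 passed. Over these lists together the share that passed was below that of all tested genes. The 8 are therefore described as single genes, not as a result about the lists. For santa-maria the interaction was 2.83 ± 0.44 (adjusted p = 0.00727), with -3.53 in larvae and -0.70 in adults. For pinta it was 1.17 ± 0.28 (adjusted p = 0.0324), with -1.67 in larvae and -0.51 in adults. For t it was -1.48 ± 0.34 (adjusted p = 0.0277), with 0.82 in larvae and -0.65 in adults.

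The remaining 5 were marker genes. The polarity gene crb gave 1.40 ± 0.35 (adjusted p = 0.0351), with -1.17 in larvae and 0.22 in adults. The neuronal gene elav gave 2.74 ± 0.65 (adjusted p = 0.0307), with -2.23 in larvae and 0.51 in adults, and the glial gene loco gave 1.38 ± 0.28 (adjusted p = 0.0176), with -1.16 and 0.22. The eye pigment transporter genes gave -1.61 ± 0.26 for st (adjusted p = 0.00866), with 1.30 and -0.31, and 2.34 ± 0.38 for bw (adjusted p = 0.00855), with -2.34 in larvae and a listing at 0 in all adult libraries. The bw interaction is thus only its larval difference with the sign turned. The calls of santa-maria, st and bw held in every alternative run, and those of pinta, t, crb, elav and loco were lost in several fits that left out 1 library, and those of pinta, crb and elav also after median centring.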

How the results depend on the processing

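Across the alternatives, 753 of 796 values of the 9 tested genes kept their direction and their side of the threshold, 5 lost a call (all of Rh5), 1 gained a call and 37 changed sign without a call in either fit. The count of genes passing in larvae between genotypes was 0 except 1 with a pseudocount of 0.1, that of Arr2. In adults between genotypes and in the interaction it was 0 throughout. In the A12 stage comparison it was 9, and 8 after median centring or with a mean of at least 5 FPKM, where 8 genes were tested. In the A4 stage comparison it was 9, and 8 under those settings and after quantile normalization. Leaving out each library gave 9 to 9 in A12, 8 to 9 in A4 and 0 to 0 elsewhere, and the lone library of a group is then assumed to vary like the other groups.

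With the replicate number as a block the counts were 9 and 9 for stage and 0, 0 and 0 for both genotype comparisons and the interaction. The numbers did not pair the libraries, since replicate differences of any 2 groups correlated at -0.0617 to 0.0857.

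In larvae 847 of all tested genes rose in A4 and 2507 fell, and 1326 rose and 982 fell after median centring or 1124 and 1185 after quantile normalization. From larvae to adults 3974 rose and 1701 fell in A12, against 2621 and 2828 after centring, and 5397 rose and 1345 fell in A4, against 2273 and 2904. In the interaction 1051 rose and 653 fell, against 574 and 934 after centring. In the A4 stage comparison 4 other named genes changed sign, and none passed in opposite directions. With no call in the main fit, pinta passed as lower at -0.90 after centring and -0.85 after quantile normalization, and sev at -0.95 and -0.92. Cnx99A and t, called as higher in the main fit, did not pass in limma once turned. They stood at -0.34 for Cnx99A after centring (adjusted p = 0.0902) and -0.30 and -0.21 for t (adjusted p = 0.321 and 0.487). The cause was not tested. Of 4365 values of other named genes 187 lost a call and 39 gained a call. A further 7 changed sign, none with a call in both fits. The interaction uses all groups, so it has no fit of only the compared groups.

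Low larval FPKM limits the larval comparisons of ninaE, Rh3, Rh4, trp and Arr2, and 2 libraries a group limit all comparisons. FPKM above its own bound limits the adult order of Rh3, Rh4 and Arr2 against trp and Arr1.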
